A study of Mus musculus with 28 samples.

Results

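Liver of male C3H fetuses on gestational day 19 (GD19) was compared with liver of male C3H mice on postnatal day 32 (PND32) and postnatal day 67 (PND67), with both later stages pooled into a single postnatal group. Of the 28 arrays in the series, 11 entered the comparison: GD19 replicates 1 to 3, 4 arrays at PND32 and 4 at PND67. GD19 replicate 4 was left out because it carried lung transcripts. Each array held total liver RNA hybridised to an Affymetrix whole-genome mouse array. Every probe set named by exactly 1 gene symbol could contribute, which gave 18193 genes. All animals were male and of the C3H strain, and the labels name no allele, transgene or treatment in any group. Fetuses were taken from timed-pregnant dams and killed by decapitation, whereas the older mice came from other litters and were killed with carbon dioxide, so stage and manner of killing cannot be told apart. The labels do not say whether the 3 fetuses were littermates or whether an array held RNA pooled from several livers, and p-values therefore measure only the spread between these samples.

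Before birth the liver is the main site of blood formation: erythroblasts, megakaryocytes, granulocyte precursors and early B cells lie between immature hepatocytes, and they leave for the bone marrow around and after birth. The hepatocytes meanwhile change from a dividing, growth-promoting cell that secretes alpha-fetoprotein to a largely resting cell that detoxifies foreign compounds, makes glucose and bile acids, breaks down amino acids and, in male mice, secretes major urinary proteins under pulsatile growth hormone. The comparison addresses which genes separate these states in a single strain and sex.

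Levels are given as log2(normalized intensity + 16). On this scale 4 is the lowest possible value, an intensity of 0, and 5.25 marks the bound of background, set from the values below 0 in the deposited table. A gene at or below that bound on every array of a group was not well above background there, and its fold is then a lower limit: the bright group's mean was divided by the dim group's mean after raising each dim value to the bound, and the result is written as "at least". Levels of different genes are not compared with each other, since probe sets differ in brightness. Changes are GD19 minus postnatal on the log2 scale, with the standard error (SE) of the fit and a limma p-value adjusted over all genes by the Benjamini-Hochberg method. A gene was called at an adjusted p under 0.05. A group at the floor of 4 on all or most arrays adds little or no measured spread. The SE and p-value of such a gene may then understate the spread, as for Hemgn, Mup3 and Cyp3a16 below.

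Alb, the hepatocyte marker that encodes serum albumin, stood at 13.16, 13.06 and 13.24 on the GD19 arrays and at 12.88 to 13.14 (median 12.99) after birth. Its change of 0.14 ± 0.06 (SE) was not called (adjusted p = 0.117), and it turned to -0.42 under scaling to the array median. Mean deposited intensity was 93.8 to 153 on the GD19 arrays and 108 to 164 on the postnatal arrays, and the 3'/5' signal ratio of Gapdh, a sign of RNA integrity, was 1.01 to 1.18 against 0.875 to 1.1. Within their group the GD19 arrays correlated at 0.962 to 0.963 on average and the postnatal arrays at 0.974 to 0.984. GD19 replicate 4 correlated with the other GD19 arrays at only 0.841. On that array the surfactant gene Sftpc reached 13.24 and the club cell gene Scgb1a1 12.58, when normalized with the other C3H arrays. 

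2 of the arrays that were kept also carried transcripts of other organs. GD19 replicate 2 held intestinal epithelium genes: Guca2a, the guanylin precursor, was at 9.66 there against 4 and 4.21 on GD19 replicates 1 and 3, Cdh17 (liver-intestine cadherin) at 8.95 against 4 and 4.36, and Lgals4 at 11.33 against 4.87 and 6.95. The summed intensity of 38 intestine genes ran from 7630 to 24600 at GD19 and from 12000 to 13200 after birth. Their median level was 6.87 on GD19 replicate 2 and 4.17 to 4.54 on the other arrays used. PND32 replicate 1 held skeletal muscle genes, with Acta1 (skeletal alpha-actin) at 12.06 and Ckm (muscle creatine kinase) at 10.44, and the sum of 22 muscle genes was 17900 there against at most 308 on the other postnatal arrays and 134 to 236 at GD19. It also held pancreatic genes such as Cpb1 at 7.48. Their part in other results was not tested. Without GD19 replicate 2 the fit called 3743 genes higher and 3498 lower, and without PND32 replicate 1 it called 3893 higher and 3888 lower.

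**Figure D1:**
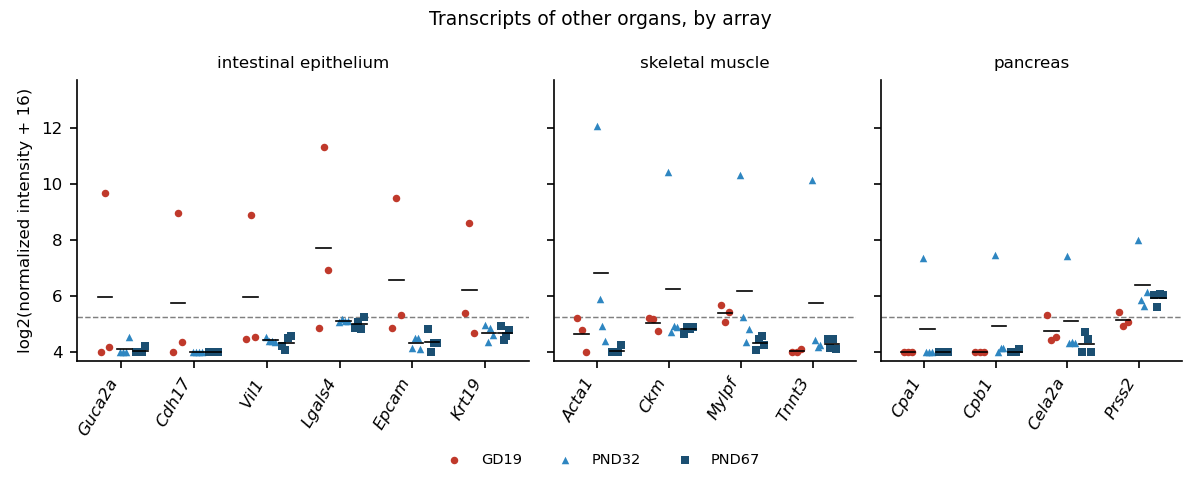
Levels of transcripts of intestinal epithelium, skeletal muscle and pancreas on the 3 GD19, 4 PND32 and 4 PND67 arrays, as log2(normalized intensity + 16); each point is 1 array, short bars are group means and the dashed line is the background bound of 5.25. A single GD19 array stands high for the intestinal genes and a single PND32 array for the muscle and pancreatic genes.

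GD19 and postnatal liver differed at 7867 of 18193 genes, which is 43.2% of those tested. Higher at GD19 were 3961 genes (21.8%) and lower 3906 (21.5%). Of these, 1677 rose and 1412 fell by more than 2-fold, and 93 rose and 68 fell by more than 16-fold. Counts called in the gene lists below stand against the shares of all genes, 21.8% higher and 21.5% lower. The 3 GD19 arrays lay wholly above the 8 postnatal arrays at 3174 genes (17.4%) and wholly below them at 3094 (17%). Above background on all 3 GD19 arrays and on no postnatal array were 505 genes, and 276 showed the reverse. For 680 of the called genes neither group was above background on any array. Against PND32 alone 6882 genes were called (37.8%), 18.9% higher and 18.9% lower, and against PND67 alone 7167 (39.4%), 19.9% higher and 19.5% lower. Both comparisons share the GD19 arrays, and 6316 genes were called in the same direction in all 3 comparisons. PND32 and PND67 themselves differed at 0 genes by limma (lowest adjusted p = 0.645, with 546 genes at an unadjusted p under 0.05). Those 546 are fewer than the share of 0.05 that chance alone would give.

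The balance of higher and lower calls depended on how the arrays were put on a common scale. Quantile normalization gave 50.3% of calls higher at GD19, whereas scaling each array to its summed plasma carrier genes gave 8563 higher and 1443 lower, or 85.6% higher, and moved the median gene by 0.55 on the log2 scale. Trimmed mean scaling gave 59.6% higher and moved the median gene by 0.11. Changes smaller than this shift are therefore relative to the quantile scale, on which the median change over all genes was -0.01. All changes describe RNA from whole liver, in which fewer cells of a type and less RNA per cell cannot be told apart.

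**Figure D2:**
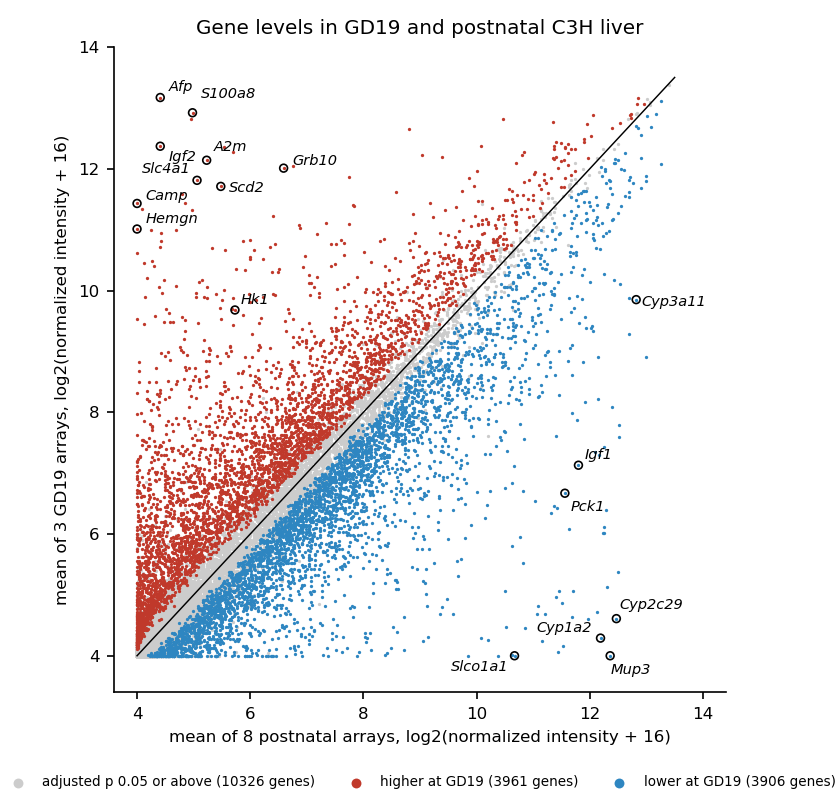
Mean level of each of 18193 genes on the 8 postnatal arrays (horizontal) against the 3 GD19 arrays (vertical), both as log2(normalized intensity + 16); red genes were higher and blue genes lower at GD19 at an adjusted p under 0.05, and the black line marks equality. The genes farthest from the line sit near the floor of the scale in the one group and above 11 in the other, among them Afp, Camp, Mup3 and Cyp1a2.

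Genes of the fetal hepatocyte programme were mostly higher at GD19. Of 28 measured fetal hepatocyte and oncofetal genes, 23 were higher and 0 lower, with a median change of 1.88. Their median level was 7.32, 8.33 and 7.17 on the GD19 arrays and 4.32 to 4.95 on the postnatal arrays. GD19 replicate 2 carried intestinal genes, whose part in these values was not tested. Afp, the fetal counterpart of albumin, stood at 13.17, 13.18 and 13.14 on the GD19 arrays and at 4 to 5.05 (median 4.35) on the postnatal arrays. No postnatal array was above background for Afp, and the change was 8.75 ± 0.2 (adjusted p = 3.9e-10), at least 417-fold. It was 8.51 against PND32 and 8.99 against PND67. Cd24a, a surface glycoprotein of immature cells, was at 12.4, 12.38 and 12.28 before birth and at 5 to 6.02 (median 5.52) after it, without overlap, a change of 6.81 ± 0.23 (adjusted p = 6.16e-09). Bex1 rose by 6.79 ± 0.19, and Gpc3, a heparan sulfate proteoglycan that restrains growth, by 4.77 ± 0.31. Sall4, a stem cell transcription factor, was dim but above background on every GD19 array at 6.2 to 6.43 and on no postnatal array, a rise of 2.26 ± 0.05. The RNA-binding protein gene Lin28b, a regulator of fetal blood formation, gave a value of -0.08 and was not called.

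Imprinted growth genes were more often higher than lower at GD19. Imprinted genes are expressed from 1 parental allele, and many set fetal growth. Of 38 measured, 16 were higher, 7 lower and 15 not called, with a median change of 0.25. The 7 lower genes are near the 21.5% of all genes that were called lower. Cdkn1c, an inhibitor of cyclin-dependent kinases, was at 10.47, 11.27 and 11.24 at GD19 and at 4.01 to 5.46 (median 4.71) after birth, a change of 6.31 ± 0.29 (adjusted p = 6.48e-08). Dlk1, a Notch-like ligand on hepatoblasts, was at 10.96, 10.54 and 10.96 against 4.08 to 4.73 (median 4.44), a change of 6.4 ± 0.16 and at least 81.6-fold. That probe set is of a kind that can match several transcripts, and the alternative probe set gave 0.04 ± 0.08 for Dlk1 (0.02 likewise for Plagl1, named next). Grb10, an adaptor that damps insulin and IGF signalling, was at 11.96, 12.05 and 12.03 against 6.21 to 7.22 (median 6.61) and rose by 5.42 ± 0.18. Plagl1, Meg3, Mest and Peg3 rose by 4.93, 4.61, 4.48 and 4.42, all with GD19 arrays above every postnatal array. In the other direction the organic cation carrier Slc22a18 was at 6.83, 5.98 and 5.55 against 8.76 to 9.11 (median 8.96), a fall of 2.84 on the log2 scale, and the amino acid carrier Slc38a4 fell by 1.76.

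Of 22 measured members of the IGF axis, 8 were higher and 5 lower at GD19, the latter near the 21.5% of all genes. Igf2, the fetal growth factor, was at 12.43, 12.34 and 12.35 at GD19. After birth it lay at 4 to 5.68 (median 4.1), with 1 array above background, and the change was 7.96 ± 0.36 (adjusted p = 5.05e-08). Igf1, the growth hormone-driven factor of later life, stood at 7, 7.02 and 7.35 at GD19 against 11.58 to 12.14 (median 11.84). It was clear of background in both groups and the groups did not overlap, with a change of -4.67 ± 0.13 (adjusted p = 1.41e-09). The genes around Igf1 moved with it in sign: Ghr, the growth hormone receptor, was at 8.53, 8.92 and 9.72 against 11.31 to 11.83 (median 11.7), a change of -2.59 ± 0.21. Igfals, the acid-labile subunit that carries IGFs in plasma, was at 6.04, 5.43 and 5.3 against 9.56 to 10 (median 9.64), a change of -4.13 ± 0.16. Of the receptors, Igf1r (change 1.84 ± 0.14) and the imprinted Igf2r (1.22 ± 0.14), which clears IGF2, were higher at GD19, and the insulin receptor gene Insr was not called at -0.27 (adjusted p = 0.283). Among the binding proteins Igfbp1, which rises in fasting, was at 12.72, 12.07 and 11.91 against 7.69 to 10.06 (median 9.07), a change of 3.2 ± 0.45, and Igfbp3 was higher by 1.37, whereas Igfbp4 was lower by -0.89. Igf2bp1, which binds Igf2 mRNA, was at 6.72, 6.3 and 7 at GD19 and at the floor of 4 on all 8 postnatal arrays, at least 3.89-fold lower there.

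Erythroid genes were higher at GD19 almost throughout. Of 22 erythroid transcription factors and cofactors 21 were higher at GD19 and 0 lower, with a median change of 2.8, and of 31 genes of the red cell membrane and surface 29 were higher and 1 lower, with a median of 3.42. The summed intensity of the second list ran from 23100 to 30800 at GD19 and from 1960 to 2520 after birth. Hemgn, a nuclear protein of erythroid precursors, was at 10.91, 10.81 and 11.31 and at the floor of 4 on every postnatal array, a change of 7.01 ± 0.08 (adjusted p = 3.04e-12) and at least 93.1-fold. The haematopoietic master factor gene Tal1 was at 9.98, 9.56 and 10.34 against 4 to 4.7 (median 4.5), at least 44.5-fold. Klf1, which drives adult globin transcription, was at 10.8, 10.09 and 10.76 against 5.61 to 6.43 (median 5.98), a change of 4.55 ± 0.22. Gata1, the erythroid and megakaryocytic GATA factor, was at 9.08, 8.64 and 9.09 against 4.41 to 5.21 (median 4.94), at least 21.6-fold. For these 4 genes no GD19 array overlapped a postnatal array, and Klf1 alone remained above background after birth. Gata2, the GATA factor of earlier progenitors, lies outside this list, differed by 0.01 and was not called.

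Membrane and surface genes followed. Slc4a1, the band 3 anion exchanger, was at 11.78, 11.68 and 11.97 against 4.52 to 5.33 (median 5.14), a change of 6.75 ± 0.15 (adjusted p = 3.64e-10). Rhag, the Rh-associated glycoprotein, was at 10.46, 10.34 and 10.68 against 4.03 to 4.51 (median 4.29), at least 64.8-fold. Ermap, the Scianna blood group protein, gave at least 63-fold. The groups did not overlap for these genes. The erythropoietin receptor gene Epor was at 8.05, 7.64 and 8.23 against 5.06 to 5.64 (median 5.32), a change of 2.69 ± 0.15, and Tfrc, the transferrin receptor, which erythroblasts use to take up iron, was at 11.1, 11.35 and 11.76 against 7.33 to 8.53 (median 7.78), a change of 3.58 ± 0.27. The member that was lower at GD19 was Cd59a, a complement inhibitor, at -1.04.

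Haem genes were mostly higher at GD19. Of 22 measured, 15 were higher and 3 lower, the latter below the 21.5% of all genes that were called lower. The mitochondrial iron importer of erythroblasts, Slc25a37, was at 11.85, 11.73 and 11.99 against 7.5 to 8.16 (median 7.73), a change of 4.11 ± 0.12. Alas2, the erythroid form of the rate-limiting enzyme, was at 11.19, 10.89 and 11.36 against 9.54 to 9.94 (median 9.73), a change of 1.38 ± 0.11 (adjusted p = 4.12e-06), so that its probe set was bright in both groups. Alas1, the housekeeping form that supplies haem to P450 enzymes, was at 8.42, 7.99 and 7.83 inside a wide postnatal range of 6.98 to 11.21 (median 8.38) and was not called (-0.52 ± 0.88). Pgrmc1, a haem-binding partner of P450 enzymes, fell by 1.98. Of 6 measured globin genes, the embryonic Hbb-y and Hba-x were higher and the others were not called. The adult Hbb-b2 was at 10.57, 10.13 and 4 against 5.38 to 7.07 (median 6.23), a value of 2 ± 1.15 (adjusted p = 0.197). The probe sets of the adult Hba-a1 and Hba-a2 lay near background in both groups. Adult globin levels therefore cannot be read from these probe sets. Hbb-y was at 7.3, 6.42 and 6.69 against 4 to 4.06 (median 4), at least 4.32-fold, although globin genes are near-identical copies whose probe sets can share signal.

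Promoter sequences are shown for Hemgn and Alas2 because erythroid genes rose together and many are known targets of GATA factors, and for Top2a and Cdk1, cell cycle genes described further on. Each is the RefSeq window on GRCm38.p6 from 250 bases before to 50 bases after the gene's start, 5′ to 3′ on the gene's strand. In Hemgn and Alas2, capitals mark AGATAA, which holds the core of the motif bound by GATA factors, on either strand. In Top2a and Cdk1 they mark, again on either strand, TTTGAA, the core of the cell cycle homology region, and also GCCAAT, the motif bound by the factor NF-Y. Hemgn lies on the minus strand at chr4:46404134-46404433, Alas2 on the plus strand at chrX:150547167-150547466, Top2a on the minus strand at chr11:99024140-99024439 and Cdk1 on the minus strand at chr10:69352863-69353162.
Hemgn: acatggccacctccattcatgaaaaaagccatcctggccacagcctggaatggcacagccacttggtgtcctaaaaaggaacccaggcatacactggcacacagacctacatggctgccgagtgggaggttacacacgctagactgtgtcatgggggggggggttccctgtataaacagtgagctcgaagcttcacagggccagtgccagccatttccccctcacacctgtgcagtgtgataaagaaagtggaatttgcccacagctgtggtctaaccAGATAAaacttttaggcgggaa
Alas2: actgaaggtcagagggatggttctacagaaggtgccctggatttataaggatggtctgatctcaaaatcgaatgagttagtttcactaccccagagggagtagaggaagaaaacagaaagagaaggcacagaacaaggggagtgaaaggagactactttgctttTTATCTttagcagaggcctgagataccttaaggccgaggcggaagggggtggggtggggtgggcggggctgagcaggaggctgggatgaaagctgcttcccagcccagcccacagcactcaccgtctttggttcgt
Top2a: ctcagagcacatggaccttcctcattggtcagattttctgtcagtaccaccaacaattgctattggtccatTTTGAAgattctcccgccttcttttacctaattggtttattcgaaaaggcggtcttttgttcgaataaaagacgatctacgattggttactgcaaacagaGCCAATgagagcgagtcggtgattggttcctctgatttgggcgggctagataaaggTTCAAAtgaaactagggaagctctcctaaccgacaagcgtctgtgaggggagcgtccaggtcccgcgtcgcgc
Cdk1: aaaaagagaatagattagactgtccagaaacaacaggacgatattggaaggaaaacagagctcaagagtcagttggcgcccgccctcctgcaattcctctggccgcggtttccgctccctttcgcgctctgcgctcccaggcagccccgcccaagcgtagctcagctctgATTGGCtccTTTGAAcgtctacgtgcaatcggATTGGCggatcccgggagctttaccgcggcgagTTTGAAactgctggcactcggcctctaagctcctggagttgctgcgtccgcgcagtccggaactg

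The motif in Hemgn lay after the start, at 29 to 34, and that in Alas2 at -86 to -81 on the reverse strand. Both strands were searched, and matches of different motifs may share letters, although none of those in capitals do. The Top2a window also holds AGATAA, left in lower case. AGATAA was present in the windows of 10 of 24 red cell membrane genes with a window (41.7%), 5 of 19 erythroid factor genes (26.3%) and 3 of 18 haem genes (16.7%), against 1378 of 14452 genes tested (9.54%). It was also present in 10 of 43 cytochrome P450 windows (23.3%), most of whose genes were lower at GD19. In Top2a, TTTGAA lay at -179 to -174 and, reversed, at -23 to -18, and GCCAAT at -79 to -74. In Cdk1, TTTGAA lay at -71 to -66 and -15 to -10, and GCCAAT, reversed, at -80 to -75 and -48 to -43. Of 53 proliferation genes with a window, 25 held TTTGAA (47.2%) and 26 held GCCAAT (49.1%), against 15.7% and 20% of all genes tested. Of the 43 P450 windows 14 held TTTGAA (32.6%) and 9 held GCCAAT (20.9%). A match describes the letters of a window and is no evidence of binding.

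Platelet and neutrophil genes were also higher at GD19. Of 21 measured megakaryocyte and platelet genes 20 were higher and 0 lower. Ppbp, the platelet basic protein, was at 10.25, 10.38 and 10.59 against 4 to 4.82 (median 4.29), at least 61-fold, and Pf4, platelet factor 4, at 10.69, 10.32 and 10.52 against 5.5 to 6.46 (median 5.97), a change of 4.5 ± 0.18. The groups did not overlap for either gene. Of 24 granulocyte genes 22 were higher and 1 lower, with a median change of 4.31. Camp, which encodes the cathelicidin peptide of neutrophil granules, was at 11.66, 11.22 and 11.41 and at the floor of 4 on all postnatal arrays, at least 125-fold. S100a8, a subunit of calprotectin, was at 13.05, 12.98 and 12.74 against 4.01 to 6.27 (median 4.83), a change of 7.95 ± 0.52 (adjusted p = 6.9e-07), and its partner S100a9 changed by 7.85 ± 0.34. Mpo, the myeloperoxidase of early granules, was at 11.52, 11.19 and 11.29 against 4.54 to 5.49 (median 4.98), a change of 6.36 ± 0.19. Cxcr2, the chemokine receptor of mature circulating neutrophils, differed by 0.07 and was not called (adjusted p = 0.702). The 1 lower member, Hp (haptoglobin, which hepatocytes also secrete), changed by -0.81.

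Precursor B cell genes were present at low level. Of 21 B cell genes 14 were higher and 2 lower. The surrogate light chain genes Vpreb1 and Igll1, which mark pre-B cells, were at 7.59, 6.3 and 6.84, and at 7.24, 6.11 and 6.97. On postnatal arrays Vpreb1 was at the floor of 4 throughout and Igll1 at 4 to 4.84 (median 4), so Vpreb1 was at least 4.68-fold higher. An alternative probe set for Igll1 gave a change of 0. Jchain, which antibody-secreting cells use to join immunoglobulins, ran the other way at 4.34, 4.14 and 4.52 against 5.34 to 5.86 (median 5.65), a change of -1.27 ± 0.13. Of 21 T and NK cell genes 4 were higher, near the 21.8% of all genes, and 1 was lower. For 12 of the 21 neither group was above background.

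Macrophage genes were mixed by subset. Of 32 measured, 18 were higher, 1 lower and 13 not called, with a median of 0.92. Vcam1, carried by macrophages of erythroblastic islands among other cells, was at 9.89, 9.61 and 10.31 against 4.99 to 5.98 (median 5.41), a change of 4.53 ± 0.22 (adjusted p = 8.34e-08). The lysozyme gene Lyz2 rose by 3.74 and the scavenger receptor gene Marco by 2.61. Of 6 Kupffer cell markers, Marco, C1qa (1.23) and C1qb (1.43) were higher, Vsig4 lower, and Clec4f and Cd5l not called. The calls of C1qa and C1qb ended without GD19 replicate 1 (0.89 and 1.14, limma's adjusted p = 0.115 and 0.0782) and under scaling to the array median (0.87 and 1.11, adjusted p = 0.114 and 0.0654). Clec4f, the Kupffer cell lectin, was at 8.32, 7.53 and 7.57 against 7.92 to 9.16 (median 8.56) and was not called (-0.67, adjusted p = 0.0892), but without GD19 replicate 1 it was (-0.93, adjusted p = 0.0416). Vsig4, a complement receptor, was lower by -1.11 (adjusted p = 0.0242), and lost its call without GD19 replicate 2 (-1.02, adjusted p = 0.0915) or replicate 3 (-1.05, adjusted p = 0.0816). Cd5l was not called at 0.4.

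Of 32 antigen presentation and interferon-response genes 13 were lower and 5 higher, with a median of -0.76, although scaling to plasma carrier genes gave 11 lower and 11 higher. H2-K1, a class I heavy chain, was at 8.12, 7.19 and 6.57 against 9.64 to 10.27 (median 9.68), a change of -2.51 ± 0.27. H2-Eb1, a class II chain, was at the floor of 4 on all GD19 arrays against 5.88 to 7.59 (median 6.14), at least 3.07-fold lower. Probe sets of the H2 family can share signal between loci. The interferon-induced tetherin gene Bst2 was at 6.58, 6.14 and 5.17 against 8.62 to 9.63 (median 9.04), a change of -3.09 ± 0.29, and Nlrc5, the class I transactivator, was at least 3.47-fold lower. Irf8, which myeloid progenitors use, was among the higher members at 1.25.

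**Figure D3:**
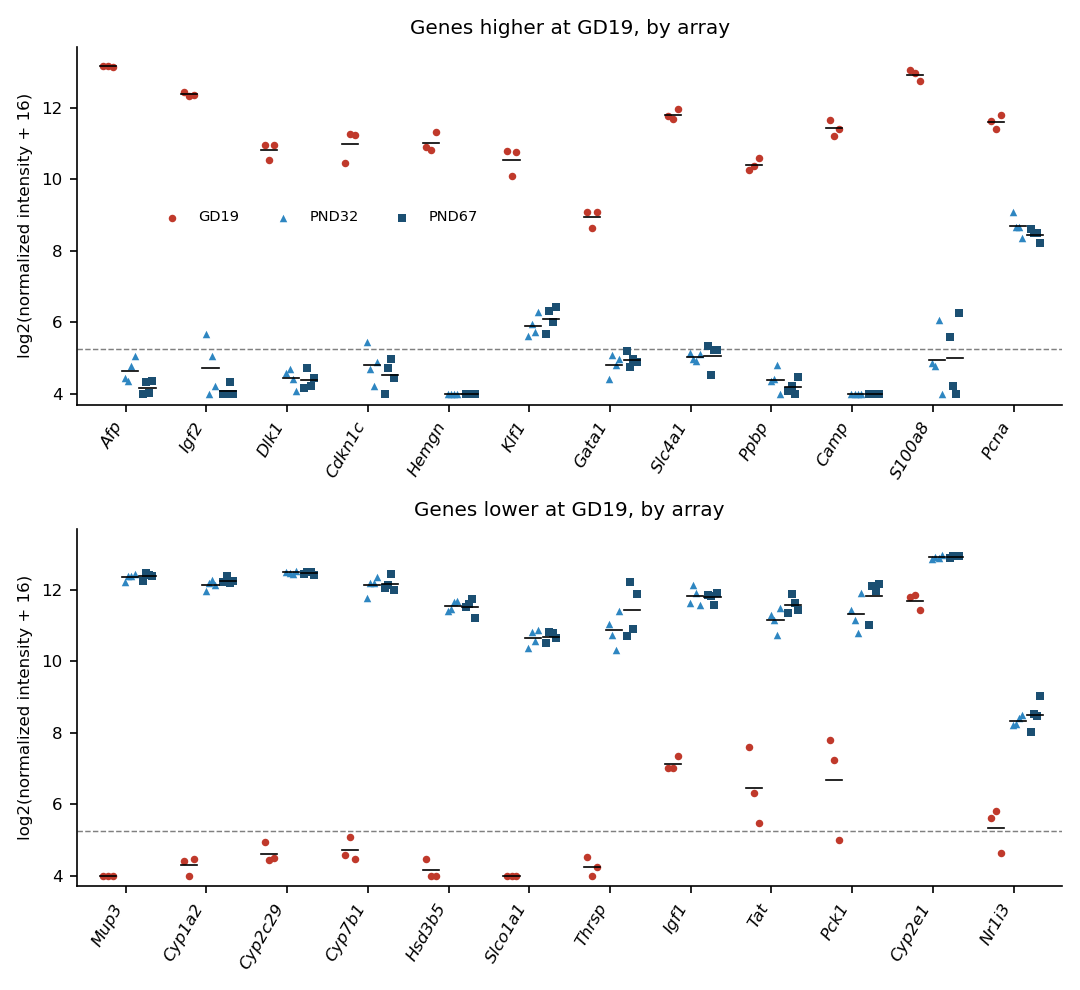
Level of 12 genes higher at GD19 (upper panel) and 12 genes lower at GD19 (lower panel) on each of the 11 arrays, as log2(normalized intensity + 16); points are arrays, short bars are means of the stage and the dashed line is the background bound of 5.25. In every gene shown the 3 GD19 arrays lie apart from all 8 postnatal arrays, and PND32 and PND67 lie together.

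Cell division genes were higher at GD19 almost without exception. Of 66 measured proliferation genes 65 were higher and 0 lower, with a median change of 2.87, and their summed intensity was 30300 to 39800 at GD19 against 2330 to 5270 after birth. Ube2c, which drives cyclin destruction at mitotic exit, was at 10.81, 10.42 and 10.87 against 4 to 6.76 (median 5.36), a change of 5.37 ± 0.53. Mki67, the Ki-67 antigen, was at 8.79, 10.21 and 11.43 against 4.39 to 6.18 (median 5.03), a change of 5.05 ± 0.53 (adjusted p = 2.3e-05). Its GD19 arrays were spread widely but all lay above the postnatal range. Top2a, the topoisomerase of dividing cells whose promoter is printed above, was at 9.61, 9.87 and 10.14 against 4.6 to 6.17 (median 5.13), a change of 4.64 ± 0.35 (adjusted p = 2.25e-06). Cdk1, the mitotic kinase, was at 9.97, 9.37 and 9.75 against 4.83 to 7.04 (median 5.58), a change of 4.02 ± 0.41. Pcna, the replication clamp, remained above background after birth and was at 11.63, 11.42 and 11.8 against 8.21 to 9.08 (median 8.56), a change of 3.04 ± 0.16. The 1 member not called was Ccnd1, cyclin D1, at 7.6, 7.48 and 6.33 against 6.63 to 8.85 (median 8.18) with overlap, a value of -0.67 ± 0.53. Among 26 chromatin and DNA methylation genes 17 were higher and 2 lower, led by Uhrf1, which recruits the maintenance methyltransferase, at 3.69, and Ezh2, the Polycomb methyltransferase, at 2.23. Of 36 ribosome biogenesis genes 20 were higher and 1 lower.

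Products of the mature male hepatocyte were low before birth. Of 22 measured major urinary protein and male-biased genes 21 were lower at GD19 and 0 higher, with a median of -4.47. Mup3 was at the floor of 4 on all 3 GD19 arrays and at 12.22 to 12.46 (median 12.38) on the postnatal arrays, a change of -8.36 ± 0.06 (adjusted p = 5.5e-14) and at least 238-fold. Mup genes are near-identical copies, and the signal of this probe set cannot be ascribed to Mup3 alone. Hsd3b5, a male-specific steroid reductase, was at 4.47, 4 and 4 against 11.19 to 11.74 (median 11.55), at least 133-fold lower. Slco1a1, a growth hormone-dependent organic anion carrier, was at the floor on every GD19 array against 10.37 to 10.86 (median 10.71), at least 73.2-fold lower. Cyp7b1, an oxysterol hydroxylase with a male bias in mice, was at 4.58, 5.09 and 4.47 against 11.77 to 12.44 (median 12.14), at least 203-fold lower. No GD19 array was above background for these 4 genes. Of 25 female-biased hepatic genes, in contrast, 11 were higher in the male fetuses and 3 lower. Hao2, a peroxisomal hydroxyacid oxidase, was at 9.36, 9.75 and 9.68 against a wide postnatal range of 4.13 to 8.15 (median 5.06), a change of 3.72 ± 0.95 (adjusted p = 0.00887).

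Cytochrome P450 genes, whose products oxidise drugs, steroids and fatty acids, were mostly low before birth. Of 54 measured, 36 were lower, 7 higher and 11 not called, with a median of -1.25, and their summed intensity was 20600 to 22300 at GD19 against 80000 to 87600. Cyp1a2, the constitutive perivenous caffeine- and arylamine-oxidising enzyme, was at 4.4, 4 and 4.46 against 11.95 to 12.38 (median 12.2), a change of -7.91 ± 0.11 (adjusted p = 8.16e-12) and at least 212-fold. Cyp2c29 was at 4.93, 4.43 and 4.49 against 12.41 to 12.52 (median 12.48), at least 257-fold lower, and Cyp2c50 was at least 181-fold lower, with the caution that Cyp2c genes are close copies. Cyp4f14, a leukotriene and fatty acid hydroxylase, was at the floor of 4 on every GD19 array against 10.13 to 10.69 (median 10.4), at least 59.9-fold lower. Cyp2e1, the ethanol-oxidising form, was already bright before birth at 11.8, 11.84 and 11.43 against 12.86 to 12.96 (median 12.92), a change of -1.22 ± 0.08.

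Members of single P450 subfamilies moved in opposite directions. In the CYP3A family, the main drug-oxidising group, all 5 measured genes were called. Cyp3a16, known as a fetal and neonatal form, was at 8.44, 8.52 and 8.53 against 4 to 4.19 (median 4), a change of 4.47 ± 0.05 (adjusted p = 1e-12) and at least 15.7-fold. Cyp3a44 was at 8.58, 8.22 and 7.84 against 6 to 7.68 (median 6.69), a change of 1.5 ± 0.34 (adjusted p = 0.00422), and with GD19 replicate 4 included it was 0.92 and no longer called (adjusted p = 0.128). Cyp3a11, the major adult form, was at 9.85, 9.91 and 9.79 against 12.71 to 12.94 (median 12.81), a change of -2.97 ± 0.05 (adjusted p = 6.15e-11). Cyp3a25 changed by -4.31 ± 0.32 and Cyp3a13, which is also intestinal, by -1.29 ± 0.08. Among fatty acid hydroxylases Cyp4a14, an inducible target of PPAR alpha, was at 9.19, 8.4 and 7.35 against 4.03 to 4.63 (median 4.41), at least 13.6-fold higher, whereas the male form Cyp4a12a was at 9.66, 9.34 and 9.6 against 11.29 to 11.75 (median 11.48), a change of -1.96 ± 0.11. In each of these genes the 2 groups did not overlap.

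**Figure D4:**
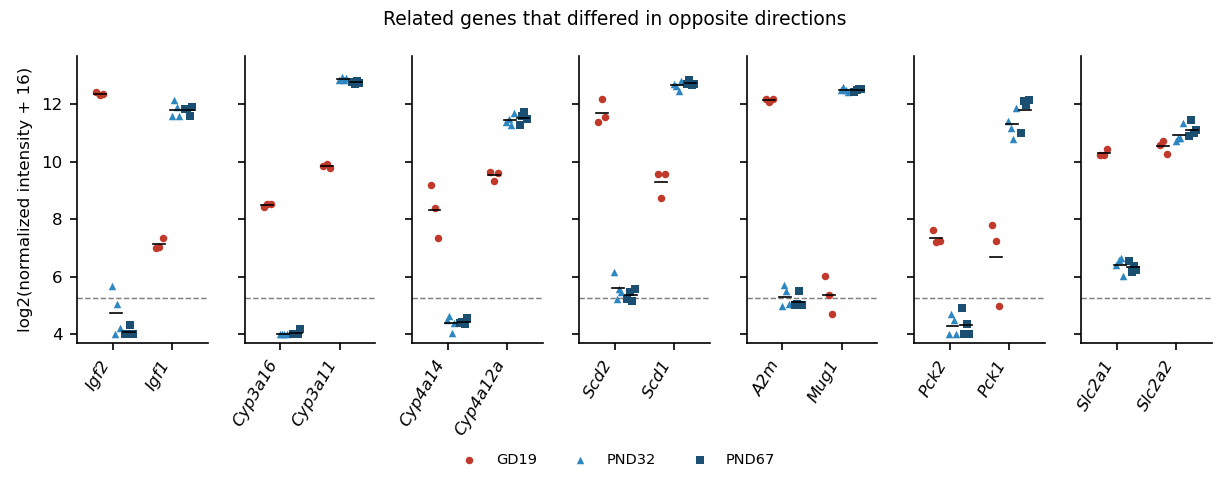
Levels of 7 pairs of related genes on the 11 arrays, as log2(normalized intensity + 16), with the gene higher at GD19 on the left of each panel; points are arrays, short bars are stage means and the dashed line is the background bound of 5.25. The left gene of each pair lies higher on all 3 GD19 arrays than on all 8 postnatal arrays, and the right gene lower, apart from Slc2a2, whose groups meet at 10.73. A lower gene can still lie well above background at GD19.

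Of 13 glucuronosyltransferase genes, which attach glucuronic acid to drugs and bilirubin, 12 were lower and 0 higher, with a median of -2.63. Ugt2b1 was at 6.55, 5.73 and 5.77 against 12.1 to 12.36 (median 12.26), a change of -6.22 ± 0.15, and Ugt2a3 was at least 66-fold lower. Of 24 methyl, acetyl and amino acid conjugation genes 21 were lower and 0 higher, among them Glyat, which conjugates glycine, at -5.3 and Inmt at -4.98. Among 28 glutathione transferase and glutathione synthesis genes 16 were lower and 5 higher, and the median of -0.5 turned to 0.02 under scaling to plasma carrier genes. The higher members were led by the microsomal transferase Mgst2, at 9.39, 9.2 and 8.47 against 4.22 to 5.13 (median 4.81), at least 22.9-fold. Of 16 sulfotransferase genes 8 were lower, 2 higher and 6 not called, with a median of -0.44 (-0.03 under scaling to plasma carrier genes). Of 34 esterase, flavin and other phase I genes 28 were lower and 1 higher, led by the carboxylesterase Ces1f at -6.39. Of 43 alcohol, aldehyde and carbonyl enzymes 27 were lower and 5 higher, with Aldh1a1, a retinaldehyde dehydrogenase, at -6.14 and Adh4 at least 48.4-fold lower.

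Transporter genes were less uniform. Of 35 uptake transporter genes 14 were lower and 6 higher, and of 34 efflux transporter genes 10 were lower and 5 higher. Their medians of -0.1 and -0.12 turned to 0.01 and 0.33 under scaling to plasma carrier genes. Slc22a7, an organic anion carrier, was at least 41-fold lower at GD19, and Slco2b1 at least 24.5-fold. The bile salt export pump gene Abcb11 was at 9.55, 9.61 and 9.7 against 10.85 to 11.26 (median 11.16), a change of -1.5 ± 0.1, and the basolateral pump Abcc3 changed by -3.41. Abca7 and Abcg1, lipid pumps with strong expression in myeloid cells, were higher by 2 and 1.52, beside the macrophage list described above, whose sum was 13500 to 18400 at GD19 and 4140 to 8490 after birth. Its part in those values was not tested.

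Many regulators of the mature hepatocyte were lower, and several factors of hepatic identity were not called. Of 38 hepatic transcription factor genes 21 were lower, 4 higher and 13 not called, with a median of -0.83. Nfix, a nuclear factor I gene, was at 7.17, 6.42 and 6.16 against 8.97 to 9.74 (median 9.28), a change of -2.74 ± 0.24, and its paralogs Nfic and Nfia were lower by -2.17 and -1.78. Zbtb20, a known repressor of Afp, was at 6.72, 6.65 and 6.86 against 8.82 to 9.34 (median 8.92), a change of -2.26 ± 0.12, and Zhx2, another repressor of Afp, changed by -1.31. Bcl6, a growth hormone-regulated repressor in male liver, was at least 7.32-fold lower. Cebpa, Foxa2, Xbp1 and Onecut1, of hepatic identity and secretion, gave values of -0.12, -0.49, -0.08 and -0.06 and were not called, although scaling to the array median called Cebpa, Foxa2 and Xbp1 lower at -0.71, -0.7 and -0.68. Cebpd, induced by stress and glucocorticoids, was higher at 8.13, 7.64 and 7.52 against 5.52 to 6.09 (median 5.91), a change of 1.89 ± 0.15.

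Of 35 nuclear receptor and xenobiotic sensor genes 20 were lower and 2 higher, with a median of -0.55. Nr1i3, the constitutive androstane receptor that controls Cyp2b and Cyp2c genes, was at 5.6, 5.81 and 4.63 against 8.02 to 9.01 (median 8.44), a change of -3.07 ± 0.25 (adjusted p = 4.13e-06). Nr1i2, the pregnane X receptor that controls Cyp3a11, was at 5.96, 5.7 and 5.22 against 6.49 to 7.46 (median 7.09), a change of -1.41 ± 0.22. Nr0b2, the small heterodimer partner that represses bile acid synthesis, was at 4.63, 4.82 and 4 against 7.56 to 8.98 (median 8.65), at least 16.1-fold lower. Esr1, estrogen receptor alpha, was at 5.06, 5 and 5.25 against 8.16 to 8.9 (median 8.78), at least 17-fold lower. For each of these the groups did not overlap.

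Sugar metabolism genes were more often higher than lower at GD19, although some isozymes, such as Pck1 and Pck2, moved in opposite directions. Of 41 glycolytic and gluconeogenic genes 21 were higher and 8 lower, with a median of 0.74. The 8 lower genes are near the 21.5% of all genes that were called lower. Hk1, the widely expressed hexokinase, was at 9.9, 9.43 and 9.69 against 5.32 to 6.11 (median 5.73), a change of 3.95 ± 0.17. The glucose carrier genes Slc2a1 and Slc2a3, used by red cells and fetal tissues, rose by 3.93 ± 0.13 and by at least 21.3-fold, and Pkm, the muscle-type pyruvate kinase of dividing cells, was at 8.96, 8.92 and 8.05 against 5.1 to 7.45 (median 5.59), a change of 2.87 ± 0.44. Slc2a2, the hepatocyte glucose carrier, was at 10.59, 10.73 and 10.28 against 10.73 to 11.44 (median 10.95), a change of -0.49 ± 0.16 (adjusted p = 0.0317). Its groups met at 10.73, and the call was lost without GD19 replicate 1 (-0.51, adjusted p = 0.0655), GD19 replicate 3 (-0.36, adjusted p = 0.148) or PND67 replicate 4 (-0.48, adjusted p = 0.0521). Pck1, cytosolic phosphoenolpyruvate carboxykinase and the controlling step of gluconeogenesis, was at 7.79, 7.24 and 4.99 against 10.79 to 12.15 (median 11.66), a change of -4.89 ± 0.54 (adjusted p = 3.41e-05). Its mitochondrial isozyme Pck2 went the other way at 7.62, 7.2 and 7.23 against 4 to 4.92 (median 4.17), at least 6.68-fold higher. Khk, the fructokinase, and Gckr, the glucokinase regulator, were lower by -2.92 and -1.54. The red cell lists above moved with the glucose carriers and Hk1, and their part in these values was not tested.

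Amino acid breakdown was low at GD19. Of 53 measured genes 48 were lower and 1 higher, with a median of -1.23. Tdo2, which opens the tryptophan ring, was at 6.31, 6.21 and 5.5 against 12.07 to 12.37 (median 12.3), a change of -6.26 ± 0.15 (adjusted p = 4.19e-10). Tat, tyrosine aminotransferase, was at 7.59, 6.32 and 5.47 against 10.73 to 11.88 (median 11.39), a change of -4.9 ± 0.37. Of 24 urea cycle and nitrogen genes 17 were lower and 2 higher. The alanine aminotransferase gene Gpt changed by -3.88 and the urea cycle gene Otc by -2.01, whereas Asns, asparagine synthetase, was higher at 10.2, 9.72 and 9.93 against 6.15 to 6.85 (median 6.34), a change of 3.55 ± 0.15. The groups were separate for all of these genes with printed levels.

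Lipid genes showed paired isozymes as well. Of 41 lipogenic and triglyceride genes 22 were lower and 8 higher, with a median of -0.77. Scd2, the stearoyl-CoA desaturase of fetal tissues, was at 11.37, 12.18 and 11.57 against 5.14 to 6.15 (median 5.47), a change of 6.23 ± 0.22 (adjusted p = 9.35e-09). Scd1, the adult hepatic form, was at 9.58, 8.74 and 9.56 against 12.47 to 12.84 (median 12.71), a change of -3.4 ± 0.16 (adjusted p = 6.95e-08). Neither desaturase overlapped between groups. Thrsp, the thyroid hormone-responsive lipogenic protein, was at 4.51, 4 and 4.24 against 10.31 to 12.2 (median 10.97), at least 102-fold lower, and the elongase gene Elovl3 at least 98.5-fold. Mlxipl, the carbohydrate response factor, changed by -2.98. Of 51 fatty acid oxidation and ketone genes 26 were lower and 13 higher, and their median of -0.42 turned to 0.15 under scaling to plasma carrier genes. Oxct1, which uses ketone bodies and is silent in adult hepatocytes, was higher by 2.39.

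Bile acid genes were mostly lower. Of 31 measured, 20 were lower, 1 higher and 10 not called, with a median of -1.23, and Baat, which conjugates bile acids, changed by -3.85. Cyp8b1 and Cyp27a1, the sterol hydroxylases of the classic and alternative routes, changed by -1.65 and -2.64. Cyp7a1, the rate-limiting enzyme, was at 8.42, 8.12 and 8.92 within a postnatal range of 7.4 to 11.13 (median 9.01) and was not called (-0.76 ± 0.87, adjusted p = 0.536). Its postnatal spread exceeded the difference. PND32 replicate 4 and PND67 replicates 2 and 4 stood at 10.78, 10.68 and 11.13, and the other postnatal arrays at 7.4 to 9.86. Zonal genes were low at both ends of the lobule: 23 of 29 perivenous genes and 19 of 29 periportal genes were lower at GD19. Glul, the glutamine synthetase of the last perivenous cell layer, was at 10.74, 10.72 and 10.34 against 10.6 to 11.01 (median 10.83) and was not called (-0.21, adjusted p = 0.126), whereas the mean of all its probe sets was (-0.39, adjusted p = 0.00659).

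Secreted protein genes were more often lower than higher on the quantile scale. Of 43 plasma carrier and protease inhibitor genes 29 were lower and 6 higher, with a median of -0.66. Once arrays were scaled to the sum of these genes, 17 were lower and 17 higher. That scaling makes the sum equal on all arrays but does not fix the counts. A2m, alpha-2-macroglobulin, was at 12.17, 12.08 and 12.17 against 4.97 to 5.7 (median 5.06), a change of 6.92 ± 0.17 (adjusted p = 5.98e-10), whereas Mug1, the related murinoglobulin, was at 6.03, 5.36 and 4.7 against 12.42 to 12.59 (median 12.5), a change of -7.14 ± 0.2. The orosomucoid gene Orm1 was at 5.52, 5 and 4.88 against 12.07 to 12.65 (median 12.31), a change of -7.17 ± 0.15. Of 26 complement genes 17 were lower and 5 higher, with C9, of the membrane attack complex, at -4.72. Of 33 coagulation genes 20 were lower and 7 higher, or 13 lower and 14 higher under that scaling, with F9 at -2.03 and F13a1, which platelets and macrophages also make, at least 7.15-fold higher. Of 31 acute phase genes 14 were lower and 7 higher. Hamp, the iron hormone hepcidin, was at 9.86, 6.6 and 6.33 against 11.63 to 12.88 (median 12.64), a change of -4.92, and the metallothionein genes Mt1 and Mt2 were higher by 2.35 and 2.81.

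Mitochondrial respiration genes stood near the middle of all genes. Of 49 measured oxidative phosphorylation genes 11 were lower, 5 higher and 33 not called, with a median of -0.05. Under scaling to plasma carrier genes 29 were higher and 1 lower, so no direction is given for this group. Their summed intensity was 80200 to 87900 at GD19 and 83100 to 93700 after birth.

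Of 34 liver endothelial genes 8 were higher and 9 lower, shares near the 21.8% and 21.5% of all genes, with a median of 0.04 and sums of 3540 to 5070 against 3690 to 4820. Lyve1, the hyaluronan receptor of sinusoidal and lymphatic endothelium, was at 8.7, 8.22 and 8.91 against 5.21 to 6.75 (median 6.02), a change of 2.62 ± 0.33. Stab2, a sinusoidal scavenger receptor, differed by 0.01 and was not called, and Clec4g, a sinusoidal lectin, was lower by -1.54. Of 44 stellate cell and matrix genes 19 were higher and 5 lower, with a median of 0.81. Their median level was 6.7, 7.69 and 6.62 on the GD19 arrays. It was 6.9 on PND32 replicate 1 and 5.74 to 6.34 on the other postnatal arrays. GD19 replicate 2 and PND32 replicate 1 carried transcripts of other organs, whose part in these values was not tested. Vim (vimentin) was higher by 2.36 and the collagen gene Col5a1 by 2.85, and the pericyte gene Rgs5 was lower by -3.15. Lrat, the retinol esterifying enzyme of stellate cells, was not called at -0.42.

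**Figure D5:**
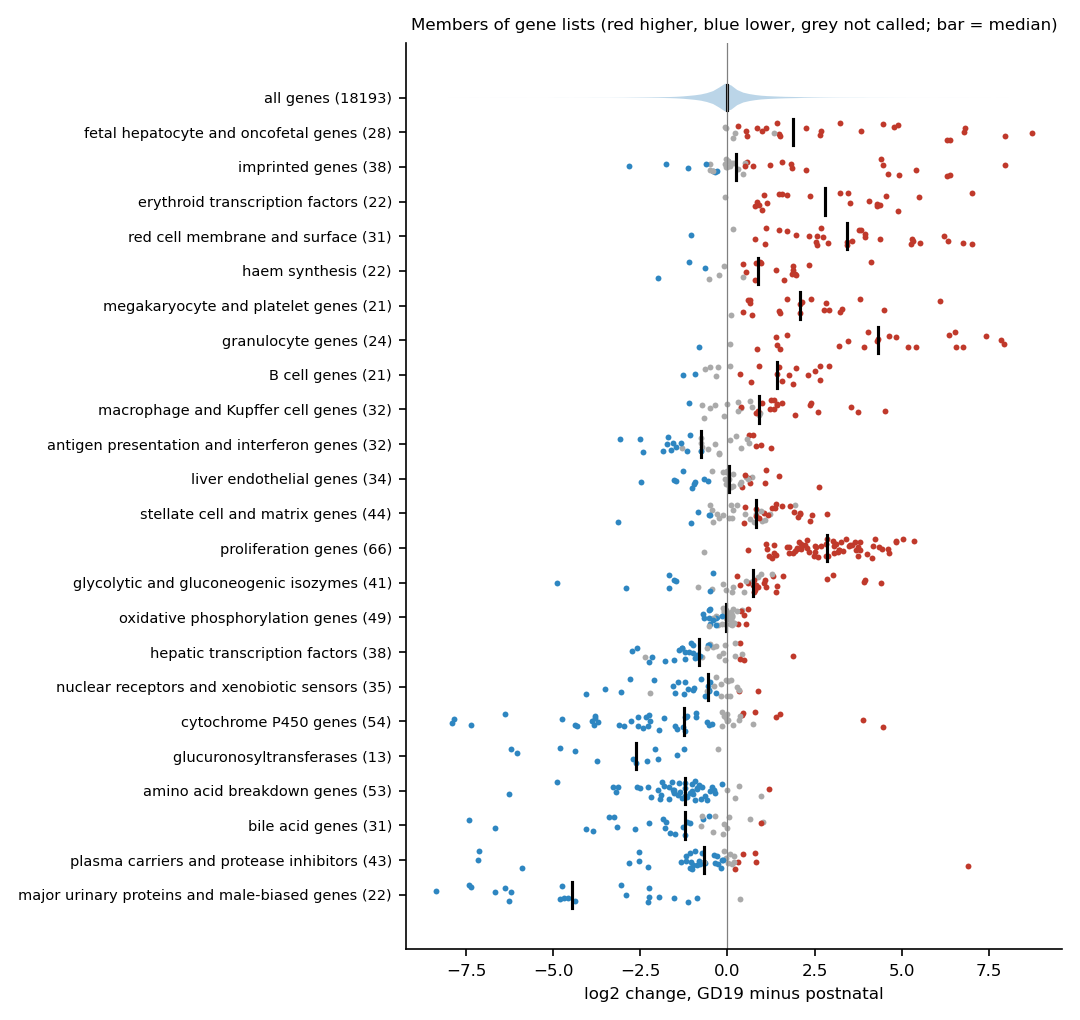
Log2 change (GD19 minus postnatal) of each measured member of 23 gene lists, with the number measured in brackets; red members were higher, blue lower and grey not called, black bars are medians and the top row shows the distribution over all 18193 genes. Erythroid, platelet, granulocyte and proliferation lists lie to the right of 0 and the urinary protein, glucuronosyltransferase and P450 lists to the left, while the oxidative phosphorylation list is centred near 0.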

How the data were processed

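Liver RNA of male C3H mice was measured on 12 arrays, 11 of which were used. The authors deposited linear probe set intensities, 45101 per array, of which 14% to 21.1% were negative. Array means differed, so the arrays needed scaling. Scanner software: not given in the sources used here. Starting from the deposited intensities, the 11 arrays were quantile normalized (limma 3.58.1, R 4.3.3), negative values became 0, and levels are log2(value + 16). The platform annotation supplied gene names: besides 64 controls, 34945 carried 1 symbol, 932 several and 9160 none. The probe set with 1 symbol and the highest mean stood for each gene. limma (lmFit and eBayes) fitted GD19 against the pooled postnatal arrays, and a fit with 3 coefficients gave GD19 against PND32 and PND67, with a Benjamini-Hochberg threshold of 0.05. The background bound, an intensity of 22, is the 95th percentile of the negative values taken without sign. The number of arrays limits the precision. On simulated data for the pooled comparison over 18193 genes, the fit called 16 of 50 genes changed by 0.5 on the log2 scale, 37 of 50 changed by 1, 46 of 50 by 2 and 50 of 50 by 4, and 12 unchanged genes. Far fewer genes were changed there than were called in the data. The adjusted threshold was therefore stricter in the simulation, and its shares do not carry over to the data.

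The gene lists, motifs and members were chosen with earlier results of these data known. Genes were named where they were among the 15 largest rises or falls without overlap, the 4 largest rises or falls of a list, any member of 8 lists, or a cell type marker. The following were chosen after their values were seen: Abcb11, Ccnd1, Cdk1, Cxcr2, Cyp2e1, Cyp4a12a, Cyp7a1, Cyp8b1, Dio1, Egfr, Gata2, Glul, Gpc3, Lin28b, Meg3, Mest, Mlxipl, Nlrc5, Otc, Pcna, Peg3, Plagl1, Sall4, Scd1 and Top2a. Replicate numbers were not used to pair the samples in the main fit. Alternatives covered scaling, pseudocount, low-value filter, probe set choice, arrays left out or added, block, variance model and a minimum fold.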

Additional observations from a re-analysis of the deposited data

Results flagged for a closer look

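Among the 8 postnatal arrays, a single array stood apart by Dixon's 95% criterion for 13 of 148 named genes tested. Chance alone flags about 1 group in 20. PND32 replicate 1 was the highest array for Acta1 (12.06), Ckm (10.44), Cpb1 (7.48), Oxct1 (8.26), Pkm (7.45), Scd2 (6.15) and Bex1 (5.58). It is the array that carries the muscle and pancreas genes, whose part in the values of Oxct1, Pkm, Scd2 and Bex1 was not tested. PND67 replicate 1 was the highest for Gpt (10.39) and H2-K1 (10.27), and PND67 replicate 4 the highest for Slc25a37 (8.16) and the lowest for Nr0b2 (7.56). PND67 replicate 3 was the lowest for Abca7 (4.3) and Inmt (10.84).

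GD19 replicate 4, which entered no comparison, carried lung transcripts above the level of every other C3H array. Sftpc stood at 13.24 there against at most 5.25 elsewhere, and Scgb1a1 at 12.58 against at most 4.77.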

How the results depend on the processing

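Requiring a change of at least 1.5-fold left 2904 genes called against the pooled postnatal arrays (1563 higher, 1341 lower), 2475 against PND32 and 2639 against PND67. A test without a spread shared between genes called 3756 (1882 higher, 1874 lower), 2711 and 2916. Scaling to plasma carrier genes gave 8563 higher and 1443 lower. With 1 array left out at a time, the pooled comparison called 7241 to 7781 genes, with 3655 to 3893 higher and 3498 to 3888 lower, and the comparisons with PND32 and PND67 called 6177 to 6826 and 6431 to 7130. Same-numbered arrays of GD19 and the later stages deviated together by correlations of only -0.06 to 0.11. Those of PND32 and PND67 did so by -0.19 to 0.32, highest for replicate 1. The numbers were not taken as pairs, and a fit with the replicate number as a block called 3733 genes higher and 3765 lower. Of 182 named genes, 138 kept their direction and their side of the threshold under every alternative run, and the test without shared spread ended the most calls, 24. Alb turned from 0.14 to -0.42 under scaling to the array median. The number of GD19 arrays, 3, and the share of genes near background limit what can be seen. How often a change of 0.5 on the log2 scale is missed cannot be read from the simulation, in which far fewer genes changed than were called in the data.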

Other observations

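Some genes of other organs were bright on all 3 GD19 arrays. Rbp2, the intestinal retinol-binding protein, was at 10.76, 10.66 and 10.41 and at the floor of 4 on every postnatal array, at least 70.4-fold higher. Olfm4, which intestinal stem cells and neutrophil precursors make, was at 9.93, 10.38 and 10.33 against 4 to 4.61 (median 4.02), at least 53.3-fold higher. Guca2a was at 4, 9.66 and 4.21 on the same arrays. The 38 intestine genes summed to 7630 to 24600 at GD19 and 12000 to 13200 after birth. Their median level was 6.87 on GD19 replicate 2 and 4.17 to 4.54 on the other arrays used. Of these genes 6 were higher and 1 lower. Both counts are below the shares of all genes, 21.8% and 21.5%. Hsd3b1, a steroid dehydrogenase of adrenal and gonad, was at 9.86, 9.66 and 10.16 against 4 to 4.48 (median 4.05), at least 42.6-fold higher. The summed intensity of 14 adrenal genes, Hsd3b1 among them, was 944 to 1190 at GD19 and 47.6 to 92.9 after birth, with 2 genes higher and 2 lower. Star and Cyp11a1, defining adrenal markers, were not above background on any array. Lpcat1, a lipid acyltransferase known from lung, was at 9.76, 8.99 and 9.73 against 4 to 5.21 (median 4.27), at least 32-fold higher. The sum of 22 lung genes, Lpcat1 among them, was 1740 to 1850 at GD19 and 1230 to 1670 after birth. Of these lung genes 5 were higher, near the 21.8% of all genes, and 1 was lower. Of the defining lung markers Sftpc, Scgb1a1 and Nkx2-1 were not above background on any of the 11 arrays. The further marker Sftpb was at 6.51, 4.87 and 5.44 at GD19 against 5.55 to 6.61 (median 6.02), and was not called (-0.4, adjusted p = 0.371). The part of RNA of these organs in the values was not tested.

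Hormone response genes were mostly lower at GD19. Of 21 thyroid and growth hormone response genes 13 were lower and 4 higher, with a median of -1.12. Dio1, the deiodinase that activates thyroid hormone, was at 4, 4.61 and 4.31 against 6.74 to 8.52 (median 7.67), at least 8.28-fold lower, and Egfr changed by -2.9. Of 20 circadian clock genes 3 were lower, 1 higher and 16 not called. Dbp, a clock output factor, had a postnatal SD of 2.36 at PND67 and 2.14 at PND32 and was not called (-2.36 ± 1.28, adjusted p = 0.173). On PND32 replicate 4 and PND67 replicates 2 and 4 it was at 9.59, 9.87 and 10.22. The other postnatal arrays lay at 5.08 to 6.45. Arntl, another clock gene, was at 5.11, 4.93 and 4.17 on those arrays and at 6.82 to 7.35 on the other postnatal arrays. The part of this split in other results was not tested. The labels used here give no hour of killing. Of 23 glycogen genes 8 were higher and 5 lower, the latter near the 21.5% of all genes. Pygb, the brain form of glycogen phosphorylase, was higher by 2.43.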
